A study of Rattus norvegicus with 12 samples.

Results

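The genes described here are 9 oxidant defence genes of rat liver that are known targets of NRF2: Nqo1, Srxn1, Gclc, Gclm, Txnrd1, Hmox1, Gsr, Ephx1 and Akr7a3, of 14217 genes named on the array. They were followed through every array probe set, a group of short probes aimed at 1 transcript, that the platform's annotation gave to 1 of these symbols alone. There were 13 such probe sets among the 31042 that are not controls of the manufacturer. A probe set was counted as unmeasured where its values had a standard deviation (SD) of at most 0.01 over all 12 arrays, which left 10 measured probe sets of 8 genes, among 3240 measured probe sets in all. The 3 unmeasured ones were the only probe set of Gsr, glutathione reductase, which held 7.15 log2 on every array, and the Srxn1 probe sets 1384331_at and 1381067_at, which held 6.38 and 5.81 log2. Flat values of this kind made up 89.6% of the table, and how they arose is not given in the sources used here. A flat value therefore gives no information on whether the RNA differed. The measured member closest to the limit was Hmox1, with an SD of 0.022.

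Livers came from male Sprague Dawley rats, 9 weeks old, that carried no stated genetic change. All rats ate a purified AIN-93G diet for 28 days. The control group ate it alone, the low group ate it with 0.1% powder of wakame, an edible brown seaweed, and the high group ate it with 1% of the powder. Each diet had 4 arrays, each of the liver of a different rat, and all levels are log2 values as the authors deposited them. Rats of a diet were caged together, and the effects of diet and of cage cannot be told apart.

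NRF2, encoded by Nfe2l2, is a transcription factor that KEAP1 holds in the cytoplasm and passes to a CUL3 ubiquitin ligase for destruction. Oxidants and many electrophilic food constituents modify KEAP1, and NRF2 then enters the nucleus, pairs with small MAF proteins and binds antioxidant response elements near its target genes. In liver the targets include enzymes that reduce quinones, make glutathione, keep thioredoxin and peroxiredoxins reduced, break down heme and clear reactive epoxides and aldehydes. Several of them also respond to xenobiotic receptors.

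Promoter sequences are shown because NRF2 acts through short elements in DNA, and because the members with the widest differences between diets can then be set beside members with small ones. RefSeq windows of the rat assembly GRCr8 were at hand for 7 of the 9 genes, 9 windows in all, with a pair each for Txnrd1 and Ephx1 and none for Hmox1 or Gsr. The table does not tell which start liver uses, and the deposited values name no genome build. Below are the 250 bases upstream of a start, 5′ to 3′ on the strand of the gene, with matches to either of the motifs described next in capitals. The windows are chr19:52220268-52220517 (minus strand) for Nqo1, chr3:161064562-161064811 (plus) for Srxn1, chr2:213031885-213032134 (plus) for Gclm, chr7:22755905-22756154 (minus) for Txnrd1, chr13:95263118-95263367 (minus) for Ephx1 and chr5:156876471-156876720 (plus) for Akr7a3.
Nqo1: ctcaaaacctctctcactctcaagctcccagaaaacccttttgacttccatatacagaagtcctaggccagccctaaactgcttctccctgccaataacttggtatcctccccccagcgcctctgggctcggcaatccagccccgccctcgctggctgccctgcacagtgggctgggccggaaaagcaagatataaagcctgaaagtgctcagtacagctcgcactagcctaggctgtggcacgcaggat
Srxn1: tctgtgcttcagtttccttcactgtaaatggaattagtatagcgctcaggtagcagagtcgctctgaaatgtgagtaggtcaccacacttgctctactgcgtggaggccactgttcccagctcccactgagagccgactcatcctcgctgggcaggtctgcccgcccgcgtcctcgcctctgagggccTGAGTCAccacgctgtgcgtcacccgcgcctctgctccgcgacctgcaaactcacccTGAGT
Gclm: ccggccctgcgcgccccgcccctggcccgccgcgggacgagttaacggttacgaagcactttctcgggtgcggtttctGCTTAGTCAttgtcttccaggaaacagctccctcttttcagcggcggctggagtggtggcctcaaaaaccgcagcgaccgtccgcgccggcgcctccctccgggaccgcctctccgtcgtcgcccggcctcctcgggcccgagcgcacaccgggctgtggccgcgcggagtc
Txnrd1: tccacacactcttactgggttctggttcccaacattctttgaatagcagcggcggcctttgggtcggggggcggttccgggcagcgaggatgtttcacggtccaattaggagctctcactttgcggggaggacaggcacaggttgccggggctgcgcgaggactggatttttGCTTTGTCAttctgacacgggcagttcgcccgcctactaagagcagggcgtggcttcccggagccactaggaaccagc
Ephx1: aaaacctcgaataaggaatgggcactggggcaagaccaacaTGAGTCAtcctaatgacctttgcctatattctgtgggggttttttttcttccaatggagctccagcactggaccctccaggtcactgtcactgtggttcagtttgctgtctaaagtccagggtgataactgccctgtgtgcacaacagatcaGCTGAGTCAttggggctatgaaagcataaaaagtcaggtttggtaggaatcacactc
Akr7a3: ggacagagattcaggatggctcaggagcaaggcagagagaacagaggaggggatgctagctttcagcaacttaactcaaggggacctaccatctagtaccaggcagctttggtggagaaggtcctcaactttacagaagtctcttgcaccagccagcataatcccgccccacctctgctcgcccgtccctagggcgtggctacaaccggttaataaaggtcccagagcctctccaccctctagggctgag

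Both strands of each window, 300 bases with the first 50 after the start included, were searched for the core letters of the antioxidant response element, TGACNNNGC, and for the AP-1 heptamer TGACTCA, with which the element can overlap. The core was found in 3 of the 9 windows and in 12.1% of all 33469 RefSeq windows of that length. It lay 172 bases before the start in Gclm (GCTTAGTCA as printed), 78 bases before it in Txnrd1 (GCTTTGTCA) and 57 bases before it in Ephx1 (GCTGAGTCA), each time on the strand opposite to the gene. The heptamer was found in 2 of the 9 windows, against 4.63% of all windows. Srxn1 held it 62 and 5 bases before the start, and the second match runs past the start, so that only its first letters are printed. Ephx1 held it 209 and 55 bases before the start, and the nearer match overlaps the core. Neither set of letters was in the windows of Nqo1, Gclc or Akr7a3 or in the other windows of Txnrd1 and Ephx1. A match is a description of letters, and elements can lie outside these windows.

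None of the 10 measured probe sets passed the test in any comparison of diets (limma with a mean per diet, Benjamini-Hochberg adjusted p under 0.05 over the 3240 measured probe sets). Of all measured probe sets, 1.67% passed in high against control, 0.0617% in low against control and 0% in high against low. The member mean lay lower in high than in control for 10 of 10, where 55.1% of all measured probe sets did, and lower in low than in control for 9 of 10, where 55.9% did. High lay below low for 5 of 10, beside 51% of all. The widest differences were in Akr7a3, Nqo1, Ephx1, Gclc and Srxn1. Gclm and Hmox1 were at almost the same mean in high as in control. The rat of control 1 had the highest value of all 12 arrays in 8 of the 10 probe sets, all but those of Gclm and Hmox1. The share over all measured probe sets was 13.9%, so the member differences from control are also given without control 1. Both comparisons with control share these control arrays and are not independent of each other.

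On measures of the arrays themselves, the gap between the 3′ and 5′ control probe sets of Gapdh, which grows as RNA breaks down, was 1.07 log2 for control 1 and 1.04 to 1.05 in the other controls. It was 1.20, 1.07, 0.96 and 1.10 in low and 1.22, 1.42, 1.17 and 1.04 in high, so 3 of the 4 high arrays lay above all controls. The same gap for Actb did not set high apart. It was 2.21 to 2.49 in control, 2.24, 2.07, 2.43 and 2.28 in low and 2.42, 2.28, 2.40 and 2.43 in high. With the Gapdh gap as a covariate, the 54 probe sets called in high against control became 4. The median member difference went from -0.73 to -0.61 and Srxn1 from -0.78 to -0.89. The Gclc probe set 1370688_at went from -0.68 (unadjusted p = 0.00496) to -0.57 (unadjusted p = 0.0387). The mean correlation of control 1 with the other controls was 0.937, against 0.947 to 0.949 for theirs, and low 2, low 3 and low 4 stood further from their own group, at 0.924 to 0.927. Of the hepatocyte markers, albumin (Alb) stood at 14.6 log2 and transthyretin (Ttr) at 14.0, both flat and thus unmeasured by the rule above, while the varying markers Apoa1, Cps1 and Tat averaged 12.9, 12.9 and 9.04. Over the varying markers of each list, control 1 averaged 11.46 log2 for hepatocytes (3 markers, other controls 11.45 to 11.86), 8.77 for Kupffer cells (7 markers, 8.76 to 9.45), 9.04 for endothelium (2 markers, 9.12 to 9.35), 8.24 for stellate cells (5 markers, 8.21 to 8.58), 8.50 for erythroid cells (3 markers, 9.00 to 9.40) and 7.30 for the lymphocyte marker Ptprc (7.45 to 7.69). Markers of hepatocyte zones stood at 9.63 for pericentral cells (5 markers, other controls 9.43 to 10.51) and 9.95 for periportal cells (5 markers, 10.77 to 11.22), and the periportal, erythroid, endothelial and Ptprc values of control 1 were below those of all other controls. No cholangiocyte marker varied.

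Markers also differed in mean between diets, though none passed. Pericentral markers lay higher than control for 4 of 5 in high (median difference 0.67) and 4 of 5 in low (0.31). Without control 1 they lay higher for 3 of 5 in high and 4 of 5 in low, with medians of 0.61 and 0.37. In high, Oat and Axin2 then differed by -0.28 and -0.05. Glul, the glutamine synthetase of pericentral hepatocytes, differed by 0.77 ± 0.25 in high (adjusted p = 0.147) and 0.61 without control 1. Periportal markers lay higher for 3 of 5 in high (median 0.33, and -0.11 without control 1) and 4 of 5 in low (0.36, and 0.27 without it). Without control 1 they lay higher for 2 of 5 in high and 3 of 5 in low. Ass1, Gls2 and Sds then differed by -0.33, -0.11 and -0.42 in high. Pck1, a gluconeogenic enzyme of periportal cells, differed by 0.73 ± 0.22 in low (adjusted p = 0.223) and 0.57 in high, and by 0.47 and 0.31 without control 1. Stellate markers lay higher for 5 of 5 in high (median 0.22) and 3 of 5 in low, with the same counts without control 1. Erythroid markers lay higher for 3 of 3 in both, and without control 1 for 1 of 3 in high and 3 of 3 in low. Kupffer markers lay higher for 6 of 7 in high and 7 of 7 in low, and for 2 of 7 in both without control 1. The part of these marker levels in the member values was not tested, and in whole liver, fewer cells of a type and less RNA per cell cannot be told apart.

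**Figure D1:**
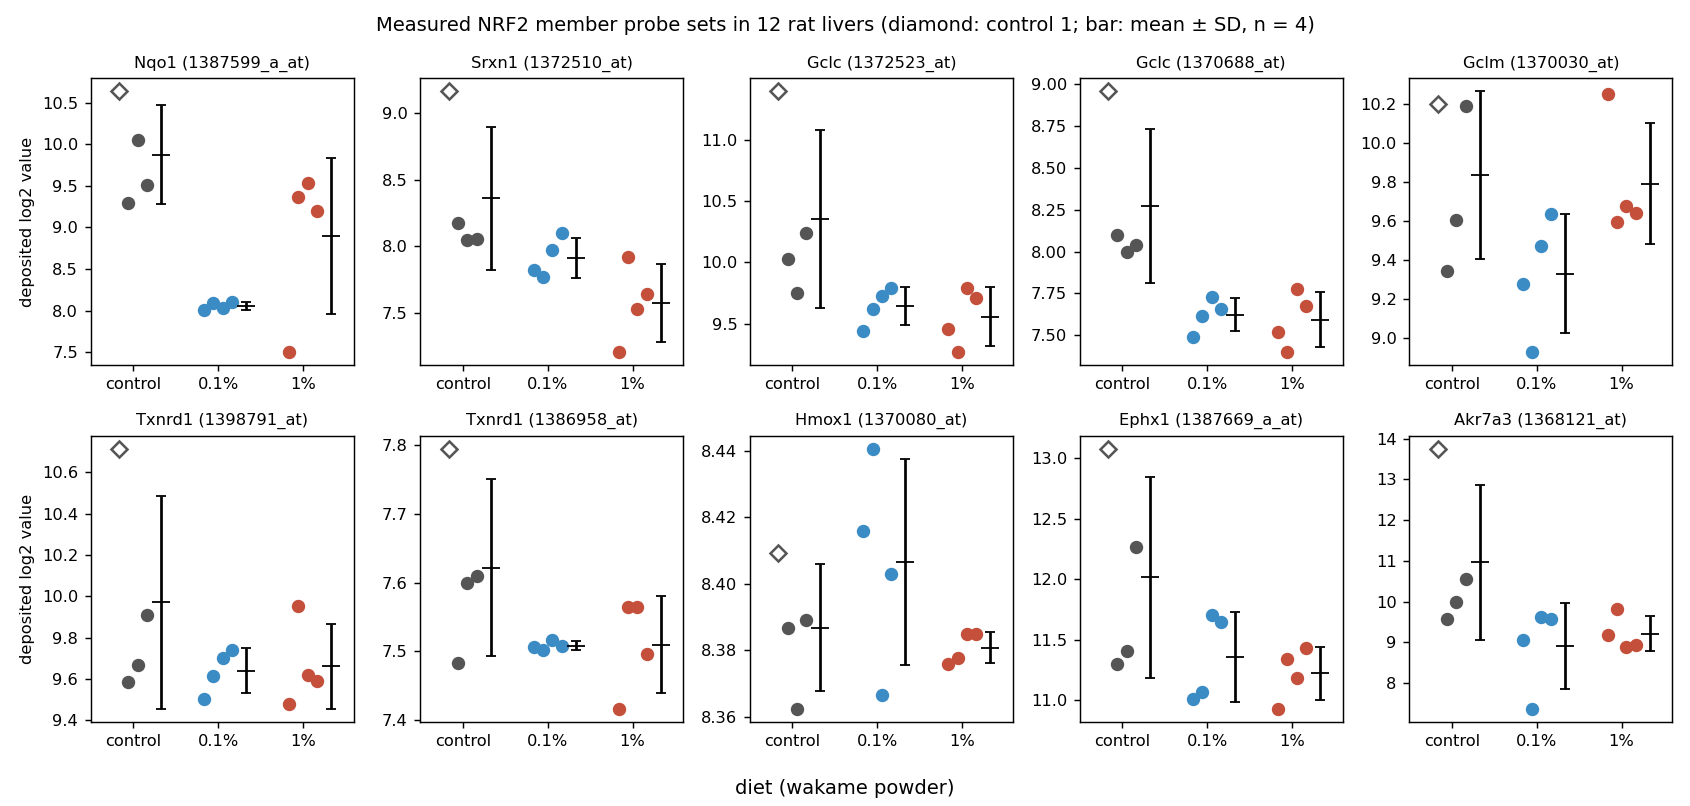
Log2 value of each measured probe set (10 panels) in the 4 rats of each diet (points), with the diet mean ± SD (bar). The diamond marks control 1, the highest point in 8 of the 10 panels, while Hmox1 spans less than 0.1 log2 and the low rats of Nqo1 lie within 8.00 to 8.10.

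Nqo1 encodes the quinone reductase that turns quinones into hydroquinones in a single step. Its probe set (1387599_a_at) read 10.63, 9.30, 10.05 and 9.51 log2 in control 1 to 4. In low it read 8.00, 8.09, 8.03 and 8.10, and in high 7.51, 9.37, 9.53 and 9.19. All low rats were thus below all control rats and close to each other, while among the high rats 1 lay below every low rat and 3 lay within or near the control range. The mean was 8.06 ± 0.049 in low (SD, n = 4), 9.87 ± 0.60 in control and 8.90 ± 0.94 in high. Low minus control was -1.82 ± 0.42 log2 (SE), with a 95% confidence interval of -2.75 to -0.88. This difference ranked 21 of 3240 by p and did not pass (adjusted p = 0.190, exact permutation p = 0.0286, the smallest that 4 against 4 arrays can give). Without control 1 it was -1.56. High minus control was -0.98 ± 0.42 with an interval of -1.91 to -0.04 (adjusted p = 0.251, exact permutation p = 0.143). It was -0.72 without control 1 and -0.51 without high 1. High minus low was 0.84 ± 0.42 with an interval of -0.09 to 1.78 (adjusted p = 0.779), and 1.31 without high 1 (adjusted p = 0.448). The order of the means, control, high, low, does not follow the dose. The high rats overlapped both the control and the low rats.

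Srxn1, sulfiredoxin, repairs peroxiredoxins that have been over-oxidised by peroxide. Its only measured probe set (1372510_at) read 9.16, 8.18, 8.05 and 8.06 log2 in control, 7.82, 7.77, 7.97 and 8.10 in low and 7.21, 7.92, 7.53 and 7.64 in high. Every high rat was below every control rat, and low lay between, overlapping both. High minus control was -0.78 ± 0.24 (adjusted p = 0.129, exact permutation p = 0.0286). Without control 1, the highest control, whose absence cannot bring an overlap, it was -0.52. Low minus control was -0.45 (adjusted p = 0.537) and -0.18 without control 1. High minus low was -0.34 (adjusted p = 0.862).

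Txnrd1, thioredoxin reductase, is the selenium enzyme that keeps thioredoxin reduced. Its brighter probe set (1398791_at) read 10.71, 9.59, 9.67 and 9.91 log2 in control, 9.50, 9.61, 9.70 and 9.74 in low and 9.48, 9.95, 9.62 and 9.59 in high. Apart from control 1 the ranges of the 3 diets overlapped. The high mean differed from control by -0.31 ± 0.22 (adjusted p = 0.479) and -0.06 without control 1, and low minus control was -0.33 (adjusted p = 0.624) and -0.08 without it. The dimmer probe set (1386958_at) lay between 7.42 and 7.80 on all arrays and followed the brighter one over the 12 arrays (Pearson r = 0.914). It differed from control by -0.11 in both wakame groups, and by -0.05 in high and -0.06 in low without control 1.

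Gclc is the catalytic subunit and Gclm the modifier subunit of glutamate-cysteine ligase, the enzyme of the first and limiting step of glutathione synthesis. The brighter Gclc probe set (1372523_at) read 11.39, 10.03, 9.75 and 10.24 log2 in control, 9.44, 9.62, 9.73 and 9.79 in low and 9.45, 9.27, 9.79 and 9.71 in high. Control overlapped the wakame groups only through control 3, and low and high overlapped each other. In the other one (1370688_at) control lay above both wakame groups, which again overlapped each other: control read 8.96, 8.10, 8.00 and 8.04, low 7.49, 7.61, 7.73 and 7.66, and high 7.52, 7.40, 7.77 and 7.67. Both probe sets followed each other closely (r = 0.971). For 1370688_at, high minus control was -0.68 ± 0.19 (adjusted p = 0.102, exact permutation p = 0.0286) and low minus control -0.65 ± 0.19 (adjusted p = 0.223, exact permutation p = 0.0286). Without control 1, the highest control, whose absence cannot bring an overlap, these were -0.45 (adjusted p = 0.0896) and -0.42 (adjusted p = 0.295). For 1372523_at they were -0.80 ± 0.30 (adjusted p = 0.198) and -0.71 ± 0.30 (adjusted p = 0.395), and -0.45 and -0.36 without control 1.

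Gclm did not follow its partner subunit in the high rats. It read 10.20, 9.34, 9.61 and 10.19 log2 in control, 9.28, 8.93, 9.47 and 9.64 in low and 10.26, 9.59, 9.68 and 9.64 in high (1370030_at). The highest value of the 12 arrays was high 1, the rat that had the lowest Nqo1. High minus control was -0.05 ± 0.23 (adjusted p = 0.956), and 0.08 without control 1. Low minus control was -0.51 ± 0.23 (adjusted p = 0.452), and -0.38 without control 1, and high minus low was 0.46 ± 0.23 (adjusted p = 0.780, exact permutation p = 0.0571).

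Hmox1, heme oxygenase 1, breaks heme down to biliverdin, iron and carbon monoxide, and is also made by liver macrophages. It stayed between 8.36 and 8.44 log2 on all 12 arrays, and no diet differed from another by more than 0.03. High minus control was -0.006 (adjusted p = 0.965) and low minus control 0.02 (adjusted p = 0.915). Without control 1 these were 0.001 and 0.03. With values this close to flat, no weight can be put on its order of diets.

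Ephx1 is the microsomal epoxide hydrolase, and Akr7a3 an aldo-keto reductase that reduces the dialdehyde of aflatoxin. Ephx1 (1387669_a_at) read 13.08, 11.30, 11.41 and 12.27 log2 in control, 11.01, 11.07, 11.71 and 11.65 in low and 10.93, 11.34, 11.19 and 11.44 in high. Its high control values came from control 1 and control 4, while control 2 and control 3 lay among the wakame rats. The difference from control was -0.79 ± 0.35 in high (adjusted p = 0.267) and -0.44 without control 1. Low minus control was -0.66 (adjusted p = 0.536) and -0.30 without control 1. Akr7a3 (1368121_at) had the widest spread of the members within control and within low, while in high Nqo1 spread wider. It read 13.75, 9.57, 9.98 and 10.56 in control, 9.06, 7.36, 9.63 and 9.58 in low and 9.17, 9.82, 8.88 and 8.94 in high. Control 1 was 13.1-fold above the geometric mean of the other controls. In high the difference from control was -1.76 ± 0.84 (adjusted p = 0.290) and -0.83 without control 1, and low minus control was -2.06 ± 0.84 (adjusted p = 0.383) and -1.13 without it.

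**Figure D2:**
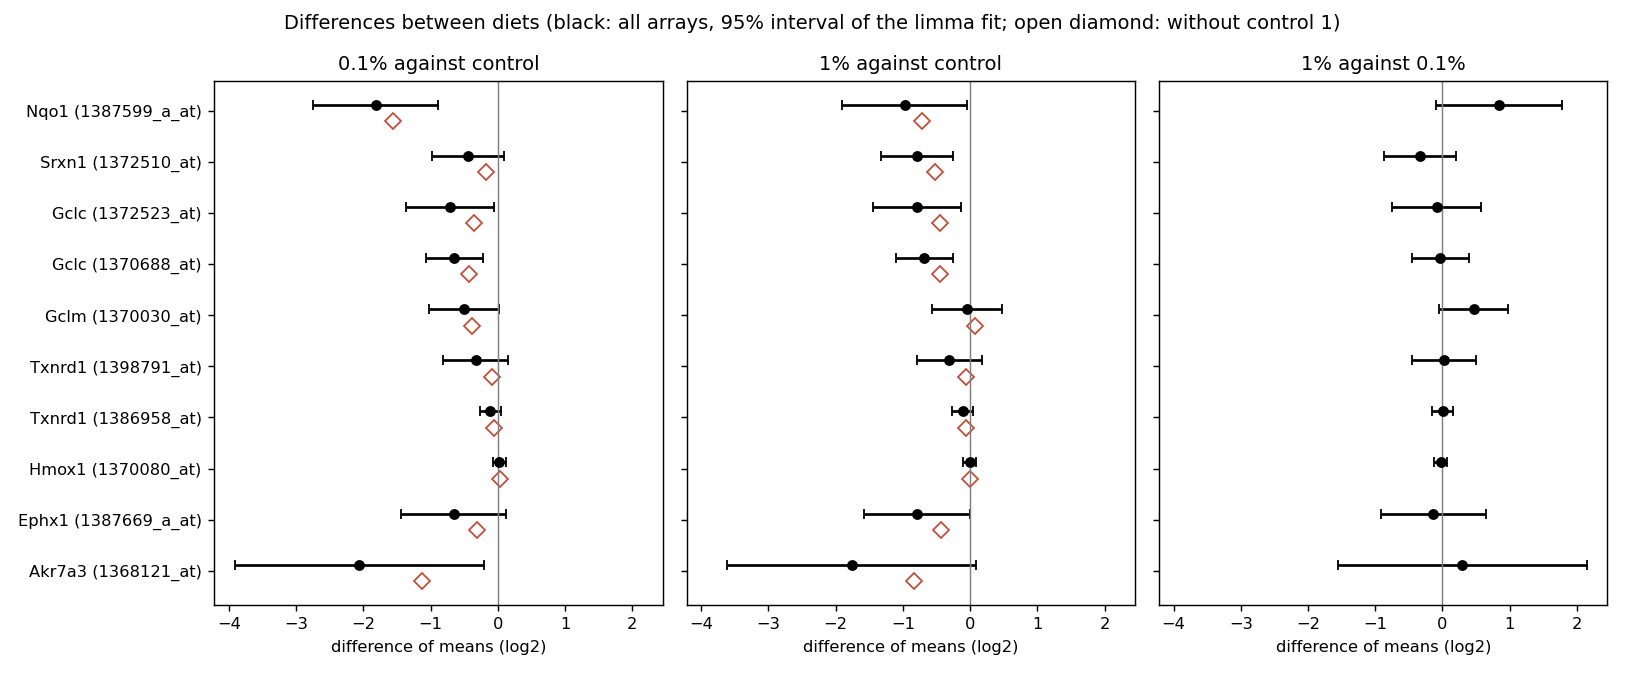
Difference of diet means in log2 for each measured probe set in the 3 comparisons, with the 95% confidence interval of the limma fit (bars), and the same difference without control 1 (open diamonds). In both comparisons with control most points lie left of 0 and their diamonds lie closer to 0 (not for Gclm in high, nor for Hmox1 in low), as for Akr7a3 in high minus control at -1.76 and -0.83.

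Counted over the member probe sets, of which Gclc and Txnrd1 have a pair each, high against control gave 0 called of 10. Of all measured probe sets 1.67% were called (54). An unadjusted p under 0.05 was reached by 5 probe sets, those of Srxn1, Nqo1 and Ephx1 and both of Gclc. All lay lower in high, against 18.5% of all measured probe sets in either direction and 10.1% in the lower direction. No overlap with lower high values was found for 2, against 6.05% of all. The median member difference was -0.73, beside -0.02 over all measured probe sets. Without control 1, 8 of 10 lay lower (55.6% of all) and 3 had an unadjusted p under 0.05 (8.18% of all in that direction). The median was then -0.44, and 13 probe sets of the whole array were called in place of 54. No overlap was again found for 2, against 7.96% of all. Control 1 was the highest control in every member probe set, so leaving it out could not change this member count.

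Low against control gave 0 called of 10, beside 0.0617% of all measured probe sets (2). At an unadjusted p under 0.05 there were 4 probe sets, those of Nqo1 and Akr7a3 and both of Gclc. All lay lower in low, against 11.5% of all in either direction and 6.73% of all in that direction. No overlap was found for 2, against 3.36%. The median was -0.58, beside -0.018 over all measured probe sets. Without control 1, 9 of 10 lay lower (55.1% of all) and 3 had an unadjusted p under 0.05 (5.65% of all in that direction). The median was then -0.33, and 2 had no overlap, against 5.03% of all, a member count that again could not change. High against low gave 0 called of 10, as in the whole table (0%), and 0 at an unadjusted p under 0.05, against 6.76% of all in either direction and 3.06% in the lower one. No member had all high rats below all low rats, against 1.94% of all. The median member difference was -0.012. The F-test for any difference among the diets called 0 members and 0.185% of all measured probe sets (6), and its lowest adjusted p among members was 0.149, for Nqo1. Over the 30 exact tests of members the adjusted p was at least 0.214.

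Most members varied together from rat to rat. Over all 28 pairs of genes the median Pearson r was 0.637 on the 12 arrays (-0.386 to 0.907) and 0.372 without control 1 (-0.700 to 0.712). Leaving out Hmox1 and Gclm, a choice made after their values were seen, the 15 pairs of genes correlated at Pearson r of 0.618 to 0.907 over the 12 arrays (median 0.844). After the diet means had been taken off the median was 0.794, with control 1 still among the arrays. Without control 1, and with the diet means left in, the median was 0.462 and the range 0.190 to 0.712. All pairs share the same arrays and the same RNA, and the values describe these 12 livers. The mean of the centred values of the 8 genes, a level relative to all arrays, was 1.45, -0.01, 0.14 and 0.42 log2 in control 1 to 4. It was -0.40, -0.61, -0.15 and -0.10 in low and -0.42, -0.02, -0.15 and -0.15 in high. Control 1 stood far above the rest, and the other controls lay above the wakame rats by a margin as small as that between control 2 and high 2.

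Against its own group, control 1 exceeded the mean of the other controls by 3.72 log2 in Akr7a3, by 1.42 in Ephx1, by 1.39 in the brighter Gclc probe set, by 1.07 in Srxn1, by 1.01 in Nqo1 and by 0.99 in the brighter Txnrd1 probe set. The gap was 0.49 in Gclm and 0.03 in Hmox1. It was the highest control in 10 of 10 member probe sets, against 26.8% of all measured probe sets, and the median gap was 1.00 beside -0.005 over all. The second pattern of single rats was in high 1, which held the lowest value of the 12 arrays in 5 member probe sets, against 9.41% of all. These were the probe sets of Nqo1, Srxn1 and Ephx1 and both of Txnrd1.

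**Figure D3:**
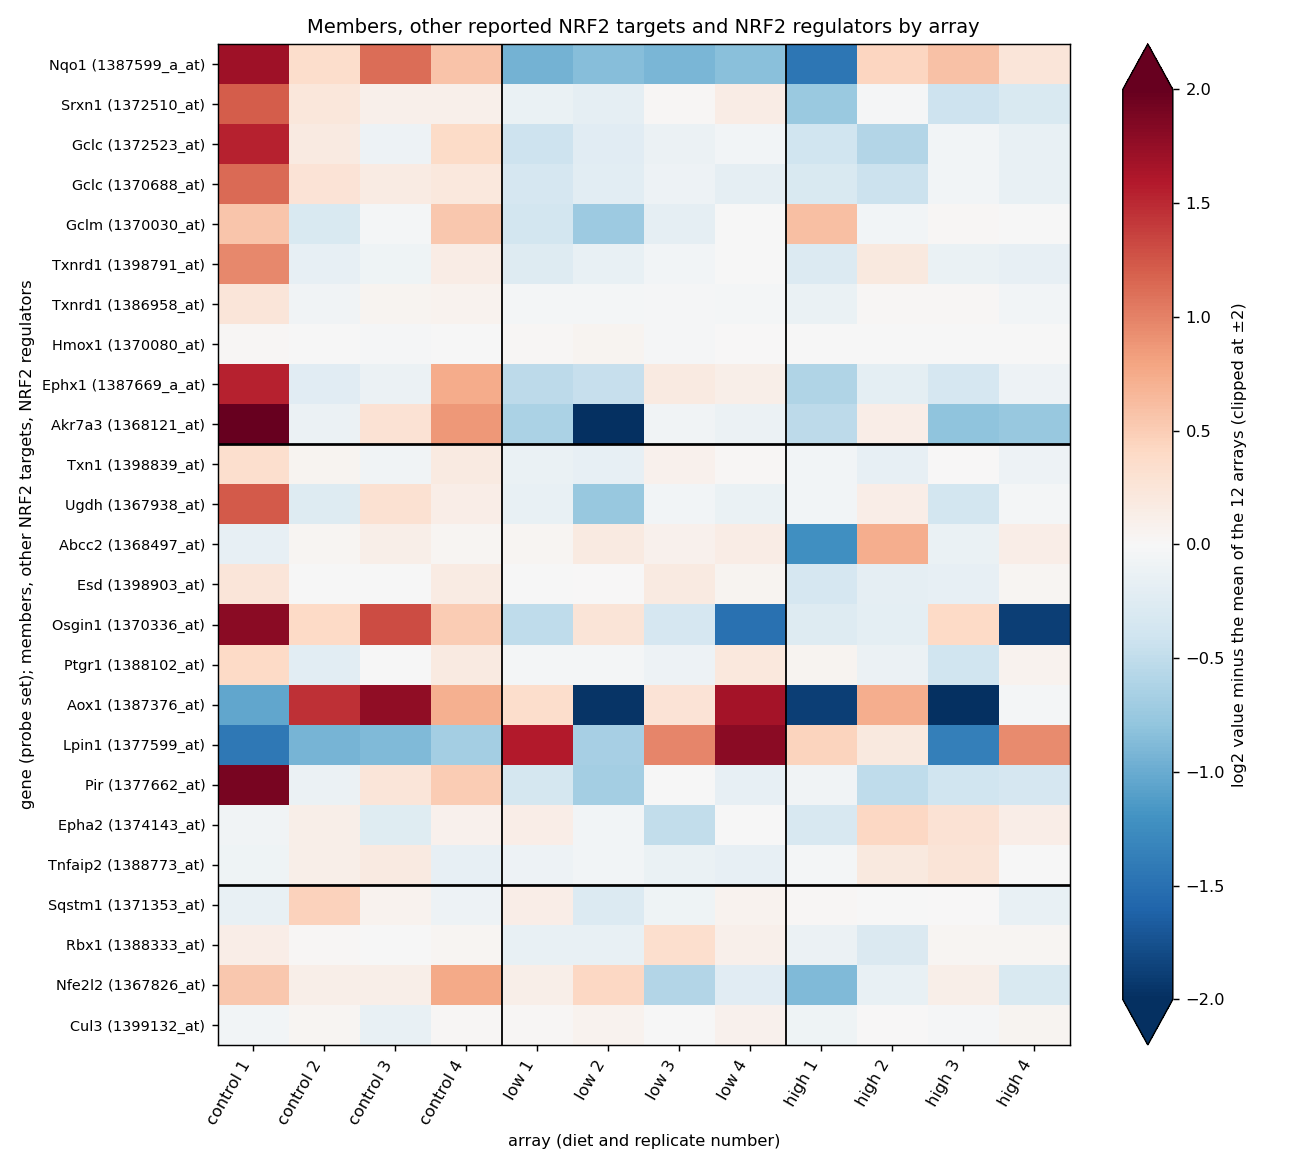
Log2 value minus the mean of the 12 arrays (colour, clipped at 2 either way) for the member probe sets (top), the 11 varying genes of the list of other reported NRF2 targets (middle) and the 4 varying regulators (bottom), by array. The control 1 column is red in most members and in Ugdh, Osgin1 and Pir, and is blue in Aox1 and Lpin1.

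Other genes of the pathway are given by lists, of which no gene passed in any comparison, with or without control 1. Where leaving out control 1 moved a named difference by more than 1.5 times, the value without it is given. For the counts below, 55.1% of all measured probe sets lay lower in high than in control and 55.9% in low. Those lower at an unadjusted p under 0.05 were 10.1% and 6.73% of all. Without control 1 the shares that lay lower were 55.6% and 55.1%, and those at an unadjusted p under 0.05 were 8.18% and 5.65%. Of 12 regulators of NRF2, 4 were measured, and 3 lay lower in high than in control. Nfe2l2, the gene of NRF2 itself, read 10.73, 10.31, 10.32 and 10.96 log2 in control, 10.31, 10.61, 9.61 and 9.97 in low and 9.32, 10.04, 10.31 and 9.89 in high. Every high rat lay below every control rat, high 3 by less than 0.01 log2, and high minus control was -0.69 ± 0.26 (adjusted p = 0.201). Cul3, Rbx1 and Sqstm1, the autophagy receptor that binds KEAP1, differed by 0.03, -0.13 and -0.10, the last of these by -0.17 without control 1. Control 1 was not the highest array in any of the 4.

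Of 28 other reported NRF2 targets, 11 were measured, 8 lay lower in high than in control and 4 of these had an unadjusted p under 0.05 (8 and 3 without control 1). Pir, pirin, differed by -0.96 ± 0.36 (adjusted p = 0.199) and read 9.62 in control 1, against 7.04 to 8.23 on the other arrays, and without control 1 its difference was -0.54. Osgin1, a growth inhibitor induced by oxidative stress, differed by -1.49 ± 0.53 (adjusted p = 0.180) in high and -1.52 ± 0.53 (adjusted p = 0.301) in low. Esd, an esterase, differed by -0.26 ± 0.09 and Txn1, thioredoxin, by -0.20 ± 0.09, or by -0.13 without control 1. Control 1 was the highest array for 6 of the 11 (Txn1, Ugdh, Esd, Osgin1, Ptgr1 and Pir). In low against control 9 lay lower and 2 higher (7 and 4 without control 1). The gene with the lowest p of the list there, named after its values were seen, was Lpin1, a phosphatidate phosphatase, which lay higher by 1.91 ± 0.58 in low (adjusted p = 0.228) and by 1.04 ± 0.58 in high.

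NADPH drives most member enzymes, and 8 of 10 genes of its supply were measured. In high against control 6 lay lower, 3 of them with an unadjusted p under 0.05: Me1, malic enzyme, at -1.96 ± 0.61 (adjusted p = 0.129), Pgd at -0.97 ± 0.31 (adjusted p = 0.146) and Tkt at -0.36 ± 0.15 (adjusted p = 0.243). Taldo1 differed by -0.10. Me1 and Pgd also serve fatty acid synthesis. In low against control 7 of 8 lay lower, again 3 with an unadjusted p under 0.05. Without control 1 the counts were 5 and 2 in high and 6 and 0 in low.

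Of 20 glutathione transferases, 14 were measured and 9 lay lower in high, where 55.1% of all measured probe sets did. Among these, 2 had an unadjusted p under 0.05, against 10.1% of all in that direction. Without control 1 the counts were 8 and 1 of 14, against 55.6% and 8.18% of all. Gsta3 differed by -2.01 ± 0.70 (adjusted p = 0.179) and read 10.23 in control 1, against 5.49 to 7.62 elsewhere, with a difference of -1.20 without it. Gstm1 differed by -0.20 ± 0.08 (adjusted p = 0.202). Mgst2 and Gsta1 differed by -0.46 and -0.20, and by -0.23 and -0.10 without control 1. Near-identical members of the alpha class can share probes, so Gsta1 and Gsta3 are uncertain as single genes. Control 1 was the highest array in 5 of the 14.

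The remaining lists, like those above, held genes on both sides of 0. Glutathione synthesis and use had 9 measured genes, 5 lower and 4 higher in high, with Mat1a, which makes S-adenosylmethionine, at 0.37 ± 0.16 (adjusted p = 0.243), Gss at -0.13 (-0.06 without control 1), Ggct at -0.13 and Chac2 at -0.04. Peroxide and superoxide removal had 5, with 3 lower and 2 higher. Txn1, also in the list of other targets above, differed by -0.20 (-0.13 without control 1). It was the only gene of this list with an unadjusted p under 0.05 in high. Txnip, Prdx5 and Txn2 differed by 0.17, 0.15 and -0.03. Heme and iron handling had 4, with 1 lower and 3 higher and none at an unadjusted p under 0.05: Fech 0.27, Hpx -0.09, Hp 0.02 (0.01 without control 1) and Alas1 0.04 (0.02). Genes of xenobiotic receptors and their targets, which also reach Nqo1, Ephx1 and Akr7a3, had 13 measured, with 8 higher and 5 lower in high, 2 and 1 of them at an unadjusted p under 0.05 (1 and 0 without control 1). Nr1i3, the receptor CAR, was at 1.16 ± 0.41 (adjusted p = 0.175), Por, the reductase of the cytochromes P450, at 0.52 ± 0.23 (adjusted p = 0.268), Cyp1a2 at 0.79 ± 0.41 (adjusted p = 0.326) and Tiparp, a target of the aryl hydrocarbon receptor, at -0.16 ± 0.07 (adjusted p = 0.263).

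Outside these 9 genes, the 5 of 2293 measured genes whose pattern was most like the mean of the members over the 12 arrays were Pir (Pearson r = 0.939), Cryl1 (0.919), Ugdh (0.909), Glrx2 (0.908) and Entpd5 (0.901). Without control 1 these were 0.751, 0.739, 0.700, 0.626 and 0.599. Most like Srxn1 were Hspd1 (r = 0.910, and 0.708 without control 1), Htatip2 (0.891 and 0.701) and Gsta3 (0.890 and 0.658). The genes most like Nqo1, a choice made after its values were seen, were Mid1ip1 (0.859 and 0.815), Gstm1 (0.825 and 0.768) and Chchd10 (0.800 and 0.751). Leaving out control 1 lowered these 3 values by less than those of the genes most like the mean of the members. All of these correlations share the same 12 RNA samples.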

How the data were processed

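Liver RNA of 12 rats was hybridised to Affymetrix rat expression arrays, 1 array per rat, after labelling with a kit that copies RNA from its 3′ end, per the labels' protocols. The authors deposited log2 values, 1 per probe set and array. That the scale is log2 was read from the values, which run from 3.15 to 14.6. The submitters' processing notes list R 2.7.2. How background, normalization and probe summaries were handled is not given in the sources used here. Depth has no meaning for arrays, and their number limits the precision.

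Symbols were those of the platform's annotation, and the 13 member probe sets matched RefSeq by gene identifier and symbol. The 57 control probe sets were left out, and so were 27802 probe sets with an SD of at most 0.01. On the other 3240, limma 3.58.1 in R 4.3.3 fitted a mean per diet to all 12 arrays, with trended eBayes and Benjamini-Hochberg adjustment, and was tested on simulated data. Exact two-sided permutation tests were run beside it. SE is that of the fit, with n = 4 arrays per diet. The labels call the arrays biological replicates. Replicate numbers did not pair the diets, so no block was used.

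All 9 members are named. From each list up to 4 varying genes with the lowest p in high against control are named, with any gene past the threshold. The likest genes are those with the highest Pearson correlation, with the brightest probe set standing for a gene. Members and lists were chosen with earlier results of these data known. Alternatives covered the SD limit, variance model, normalization, dim probe sets, RNA integrity, the block and leaving out arrays.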

Additional observations from a re-analysis of the deposited data

Results flagged for a closer look

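In 4 of the 30 groups of member values, 1 rat stood apart from the other 3 of its diet by Dixon's criterion, the gap to the nearest rat over the range, which chance meets in about 1 group of 20. Over all measured probe sets this held in 568 of 9720 groups (5.84%). Control 1 read 9.16 log2 for Srxn1, with the nearest control at 8.18, and 8.96 for Gclc (1370688_at), with the nearest at 8.10. High 1 read 7.51 for Nqo1, with the nearest high rat at 9.19, and 10.26 for Gclm, with the nearest at 9.68. The same high rat was thus the lowest in Nqo1 and the highest in Gclm.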

How the results depend on the processing

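No member passed under any of 12 other fits or with any single array left out: 585 member values stayed short of the threshold and 22 had the other sign. In the other fits the median member difference moved by less than 0.345 log2, the SD of the median member level within diets, except with flat probe sets included. Flat probe sets add members that cannot differ, and with them the median difference was -0.31 in high against control. With 1 array left out it ran from -0.83 to -0.44 in high against control, from -0.69 to -0.33 in low against control and from -0.024 to 0.013 in high against low. Control 1 set the ends nearest to 0 in both comparisons with control. Rats of the same replicate number did not deviate together (correlation of deviations -0.115 to 0.092), and with the replicate number as a block 0 members were called, with a lowest adjusted p of 0.191, 0.213 and 0.792 in the 3 comparisons. The block changed no call of a member. Over all probe sets, the 54 calls in high against control became 12 with the block, 9 with flat probe sets included, 29 with robust variances, 28 with the arrays of those diets alone, 10 with 1 probe set per gene, 4 with the Gapdh 3′ minus 5′ difference as a covariate and 7 to 36 with an array left out. The recounts of members and lists without control 1 were chosen after seeing the data. With 4 arrays a diet, an exact test cannot go below 0.0286.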
